A study of Mytilus galloprovincialis with 40 samples.

Results

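The August clones were 84 of the 1920 cDNA clones on the mussel array whose transcripts varied over the year in female digestive glands and were most abundant in August. A clone was a member if its month levels differed in the moderated F test of limma (Benjamini-Hochberg adjusted p below 0.05 over all clones) and if August had the highest of the 12 fitted levels. The F test called 719 clones (37.4%), of which the members were 11.7%. August was the highest month in 232 of the 1920 clones (12.1%) with or without a call, and 148 of these were not called. Since these values chose the members, the differences between months given for them below are descriptions, and only the arrays held out of the choice were used as a check.

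All samples were pieces of digestive gland of single female *Mytilus galloprovincialis* from the Bizerta Lagoon in Tunisia, untreated and collected monthly between May 2007 and April 2008. Each of 40 arrays set an animal of a month against an animal of the calendar month before, in Cy3 and Cy5. There were 4 arrays in 4 of the steps and 3 arrays in the 8 others. The May/Apr arrays closed the loop and set animals of May 2007 against animals of April 2008, which were collected later. The methods say that the females came from the gonadal stage most represented in a month, so month and stage cannot be told apart. August RNA was on 6 arrays, 3 against July (Aug/Jul) and 3 against September (Sep/Aug), and whether the August animals of the 3 Aug/Jul and the 3 Sep/Aug arrays were the same is not given in the sources used here.

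The digestive gland is the organ in which mussels digest and absorb filtered food, store reserves and handle many foreign compounds. Its transcripts are known to vary with food, temperature and the reproductive cycle, and August lies in the hot part of the year at this site. In a loop of 2-colour arrays only ratios between neighbouring months are measured, and the level of a month is fitted from all ratios together. In a piece of tissue, fewer cells of a type and less RNA per cell cannot be told apart.

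The share of clone spots that exceeded the local background in both channels ran from 13.6% to 78.4% over the arrays, and from 28.2% to 78.4% on the 6 August arrays. Replicate 1 of the Apr/Mar step ran against the 3 other arrays of its step, with r between -0.81 and -0.62 over all clones, so its direction is not settled. It was used as labelled, and with its sign turned 81 of the 84 members still met the rule. The clones carry position codes, and 0 of the 84 codes was found in the reference gene table. No gene name, function or sequence is therefore given, and the tissue could not be checked by marker genes. The array was described as holding fewer independent sequences than the 1920 clones, so some members may report the same transcript.

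The members shared a summer maximum of modest height. Their median level, relative to each clone's own mean of the 12 months, went from -0.21 (log2) in June to 0.03 in July and 0.47 in August, and stood at 0.07 in September and 0.11 in October. It was -0.20 in November and -0.15 in December, and between -0.09 and 0.06 from January to May. August stood 0.51 (median, log2) above the mean of the other months, with a range from 0.23 to 2.62 over the members. From the lowest to the highest month the median member changed 1.82-fold, and the widest range was 14.0-fold. The difference reached 2-fold in 33 members and 4-fold in 11, which is 39.3% and 13.1% of them, against 53.1% and 16.3% of all clones called in the F test.

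August was often only narrowly the highest month. Its lead over the second month had a median of 0.13 (log2), was below 0.05 in 22 members and was smaller than its own standard error in 54. The lead exceeded 2 standard errors in 11 members. The second month was September in 26 members, July in 17, February in 12 and October in 12. The lowest month was June in 28 members and November in 15. Just inside the F threshold the adjusted p was 0.0439, 0.0463 and 0.0469, and just outside it 0.0512, 0.0516 and 0.0524. The 3 smallest leads of August inside the rule were 0.00095, 0.0032 and 0.0085, and the nearest called clones outside it had August second by 0.0066, 0.012 and 0.013. Of the called clones, 49 had August second, 9 of them by less than 0.05.

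The members were split by which step next to August was called. Against July, 21 of the 84 were called higher in August (adjusted p below 0.05 and log-odds B above 0), where 1.88% of all clones were called. Against August, 20 of the 84 were called lower in September, where 3.12% of all clones were called. A single clone was in both lists, so that 20 members had the rise only, 19 the fall only and 44 neither. The rule had used both contrasts, so nothing is read from these shares. The split follows the calls and not the size of a step. The July and September levels of the groups follow in part from the split, and are given below as descriptions. From July to August the largest rise was 1.76 (log2) in the clones with the fall only and 1.13 in those with the rise only. The median standard errors of that difference were 0.29 and 0.13. The August members made up 21 of the 36 clones called higher in August than in July, and 20 of the 60 called lower in September. Against January, the study's reference month, 9 of the 84 were called higher in August (1.56% of all clones). A lower call was not possible, since August is the highest month of every member by the rule. The F test had used this contrast as well.

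**Figure D1:**
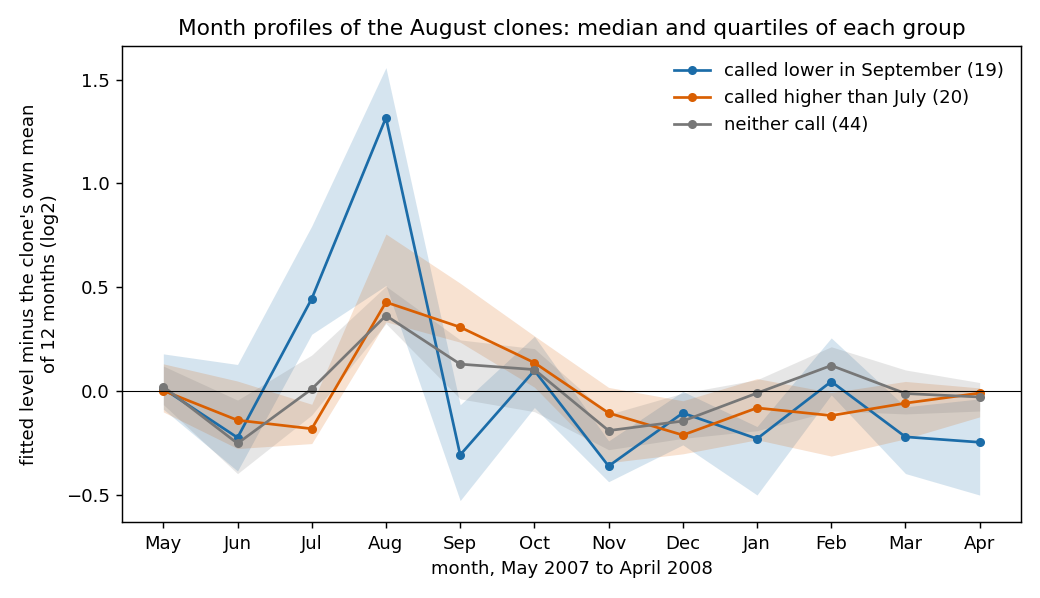
Fitted level of each month minus the clone's own mean of 12 months (log2, vertical axis) from May 2007 to April 2008 (horizontal axis), as the median (line) and quartiles (band) of the 19 clones with the September fall only, the 20 with the August rise only and the 44 with neither call. The fall group climbed through July and dropped below its mean in September, whereas the rise group went from -0.18 in July to 0.43 in August and was still at 0.31 in September. The groups were split by the calls on these steps, so this contrast follows in part from the split.

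The 20 clones with the rise only were low in July and stayed high after August. Their median level was -0.18 (log2) in July, 0.43 in August, 0.31 in September and 0.14 in October, and -0.10 in November. August exceeded July by a median of 1.58-fold (1.36 to 2.18) and September by 1.12-fold (1.00 to 1.36). September was the second month in 16 of the 20. They were mostly bright spots, with a median mean log2 intensity of 10.1 and 96.2% of their spots above background.

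Myt01-013B10 and Myt01-011G02 had the highest moderated t for the rise. The log2 ratios of August over July for Myt01-013B10 were 0.32, 0.96 and 0.71 on the 3 arrays, which gave a fitted difference of 0.73 ± 0.11 (SE). The ratios lay above 0 on every Aug/Jul array, and the lowest was on the array with August in Cy5. On the Sep/Aug arrays its ratios of September over August were 0.19, -0.18 and -0.29, on both sides of 0, and the fitted levels of August and September differed by only 0.02 ± 0.11. Its ratios of November over October lay between -0.70 and -0.61 (log2) on the 3 arrays.

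Myt01-011G02 was the brightest member. Its Aug/Jul ratios were 0.94, 1.19 and 1.26 (log2), and the fitted difference was 1.05 ± 0.16 (SE), or 2.07-fold. In background-subtracted intensity its August channel read 3234, 13654 and 12406 on these arrays, against 2005, 8220 and 7199 in July. Its Sep/Aug ratios were -0.23, -0.35 and 0.22, which again fell on both sides of 0. It stood 1.54 ± 0.28 (SE, log2) above January in August and 1.34 above it in September.

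The 19 clones with the fall only were already above their own mean in July, all 19 of them, and dropped steeply after August. Their median level was 0.45 (log2) in July, 1.32 in August and -0.31 in September, with a partial return to 0.10 in October and -0.36 in November. August exceeded September by a median of 3.21-fold (1.38 to 8.09) and July by 1.43-fold (1.02 to 3.38). The largest rise from July was thus larger here than the 2.18-fold maximum of the rise group. July was the second month in 12 of the 19. Over the year these clones ranged by a median of 3.40-fold, against 1.73-fold in the rise group. They were dimmer, with a median mean log2 intensity of 8.29 and 50% of their spots above background. Each of the 84 members exceeded the background in the channel of the August and of the September RNA on at least 1 of the 6 arrays of that month. For July 2 members did not, a clone of the rise group and a clone of the fall group, so the July side of these 2 is not well above background. Such members were most frequent in January (8), December (7) and November (6), and 6, 4 and 4 of these were in the fall group. The low levels of that group in these months thus rest in part on signal near background. On every array of the month 12 of its 19 clones exceeded the background in August and 7 in September.

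The size of the September fall differed between arrays. The median ratio of August over September in the fall group was 2.31 and 2.13 (log2) on replicates 1 and 2, where August was in Cy5, and 0.54 on replicate 3, where August was in Cy3. All 19 clones were on the August side on replicates 1 and 2, and 18 on replicate 3. Dye and array cannot be told apart within this step. With a dye term for every clone the median fitted fall was -1.68, the same as without it, and 18 of the 19 stayed called. The dye balance was the same in every step with 3 arrays, so in the closed loop this term could hardly move the fitted months. The unchanged value therefore says nothing about the split between the replicates. Without replicate 1 of Sep/Aug only 8 members were called lower in September, and without replicate 2 only 10.

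Myt01-017F02 and Myt01-008H05 had the lowest moderated t for the fall. The log2 ratios of September over August for Myt01-017F02 were -3.01, -3.07 and -0.84, and the fitted difference was -2.20 ± 0.34 (SE). All 3 arrays agreed in sign, but not in size. Its August intensity was 2137, 4837 and 937, and its September intensity 125, 524 and 461. Its Aug/Jul ratios were 0.72, 1.04 and 0.82, and this difference was not called. In October it was higher than in September on 3 of 3 arrays, by 0.83 to 1.04, and in November it was lower than in October on 3 of 3 arrays.

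For Myt01-008H05 the ratios of September over August were -3.23, -2.98 and -1.67, with a fitted difference of -2.59 ± 0.41 (SE), a 6.02-fold drop. The Aug/Jul ratios were -0.66, 1.14 and 1.25, so that replicate 1 ran against the other arrays, and August and July differed by 0.61 ± 0.41 in the fit. The same kind of split was seen in the Jul/Jun and the Jun/May steps, where the array with the later month in Cy5 lay at -0.65 and -1.11 and the others between 0.97 and 2.01. In May/Apr the arrays split within each dye, with -1.85 and 0.31 for May in Cy5 and 0.32 and -1.46 for May in Cy3. After September its ratios were 1.49 to 1.72 on the 3 Oct/Sep arrays, below 0 on the 3 Nov/Oct arrays and 1.28 to 1.43 on the 3 Dec/Nov arrays. Its course over the autumn therefore alternated from month to month on every array.

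Myt01-004D01 was the clone with both calls, and is named here after its values were seen. Its Aug/Jul ratios were 1.59, 1.84 and 1.17 (log2) and its Sep/Aug ratios -3.26, -2.96 and -0.43. The fitted rise was 1.59 ± 0.40 (SE) and the fitted fall -2.16 ± 0.40, so August stood 3.01-fold above July and 4.46-fold above September. It led the second month, February, by 1.41 ± 0.69. The call of the rise lay close to its limit, with B at 0.11, and was lost in 29 of the 40 fits that left out 1 array, while the fitted rise remained between 1.48 and 1.77.

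**Figure D2:**
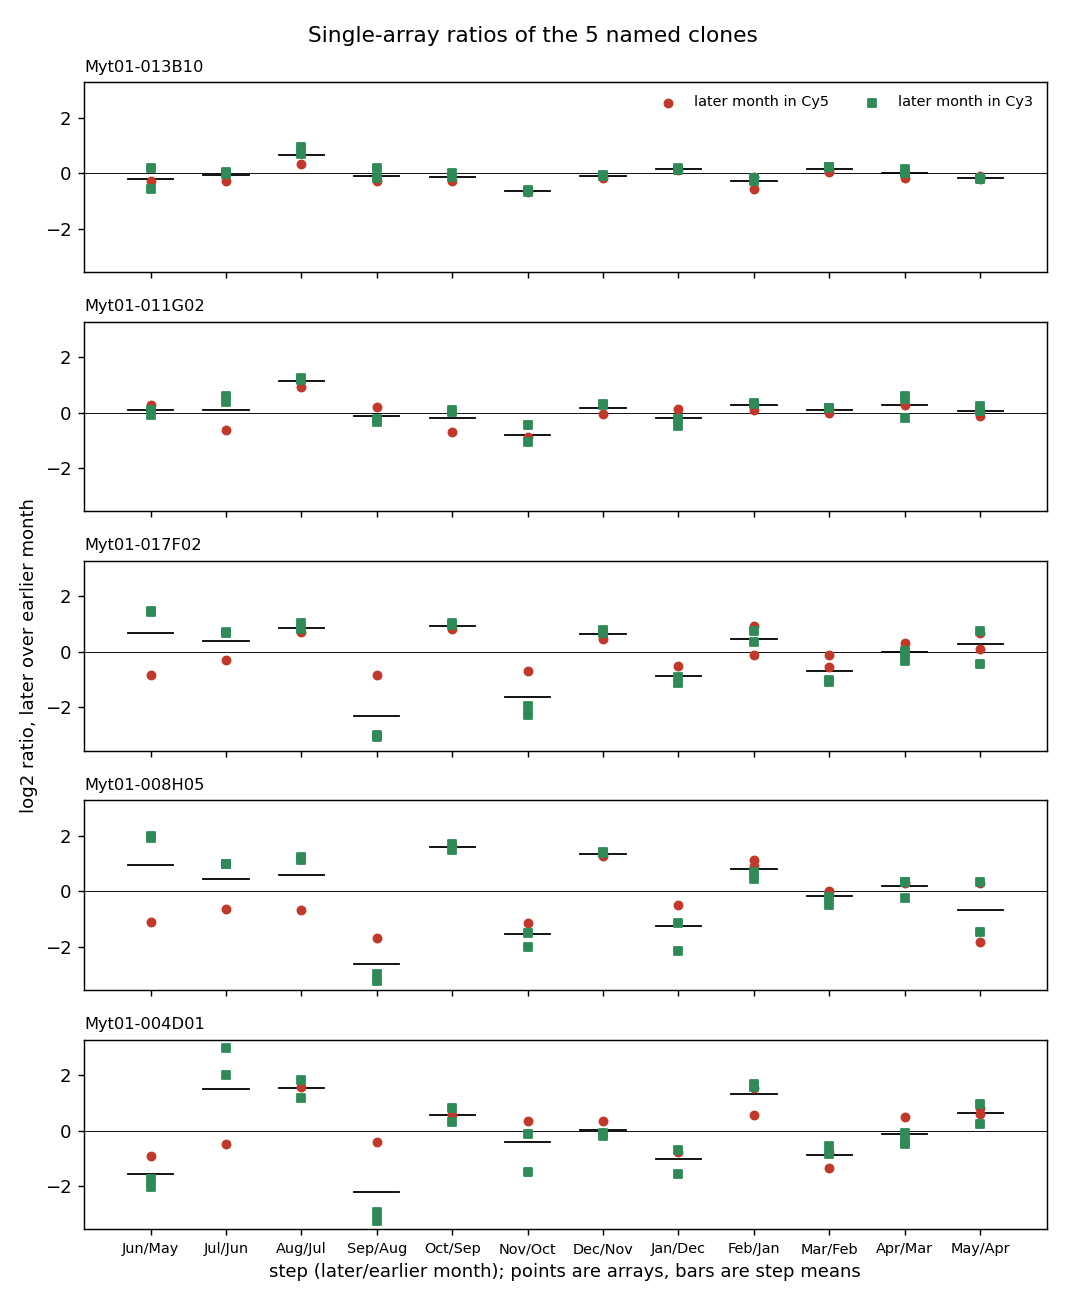
Log2 ratio of the later over the earlier month (vertical axis) on every array of each step (horizontal axis) for the 5 named clones, with the later month in Cy5 (circles) or Cy3 (squares) and the step mean as a bar. Myt01-013B10 and Myt01-011G02 lie above 0 on all 3 Aug/Jul arrays and near 0 on the Sep/Aug arrays, and the other 3 clones lie below 0 on all 3 Sep/Aug arrays, least so on the array with September in Cy5.

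The 44 members with neither call are described by their fitted levels. Their median level went from -0.25 (log2) in June over 0.01 in July to 0.36 in August, and was 0.13 in September, with a second, lower elevation of 0.12 in February, when 30 of the 44 were above their own mean. June was the lowest month in 19 of the 44. August exceeded July by a median of 1.34-fold and September by 1.28-fold. With the adjusted p alone, without the limit on B, 44 of the 84 members were called above July (5.62% of all clones) and 28 below August in September (5.26% of all clones).

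On single arrays most members lay on the August side. On the Aug/Jul arrays 76, 82 and 77 of the 84 had a ratio above 0, with medians of 0.47, 0.47 and 0.42 (log2). August was in Cy5 on replicate 1 and in Cy3 on replicates 2 and 3, so the medians of both dye orientations were close. On the Sep/Aug arrays 79, 76 and 61 of the 84 were on the August side, with medians of 0.48, 0.45 and 0.19. Replicate 3, with August in Cy3, was the lowest. All 3 Aug/Jul arrays were on the August side in 68 members (21.2% of all clones), all 3 Sep/Aug arrays in 55 (20.6% of all clones), and all 6 in 43 (5.94% of all clones). These shares are a description too, since the same arrays entered the rule.

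**Figure D3:**
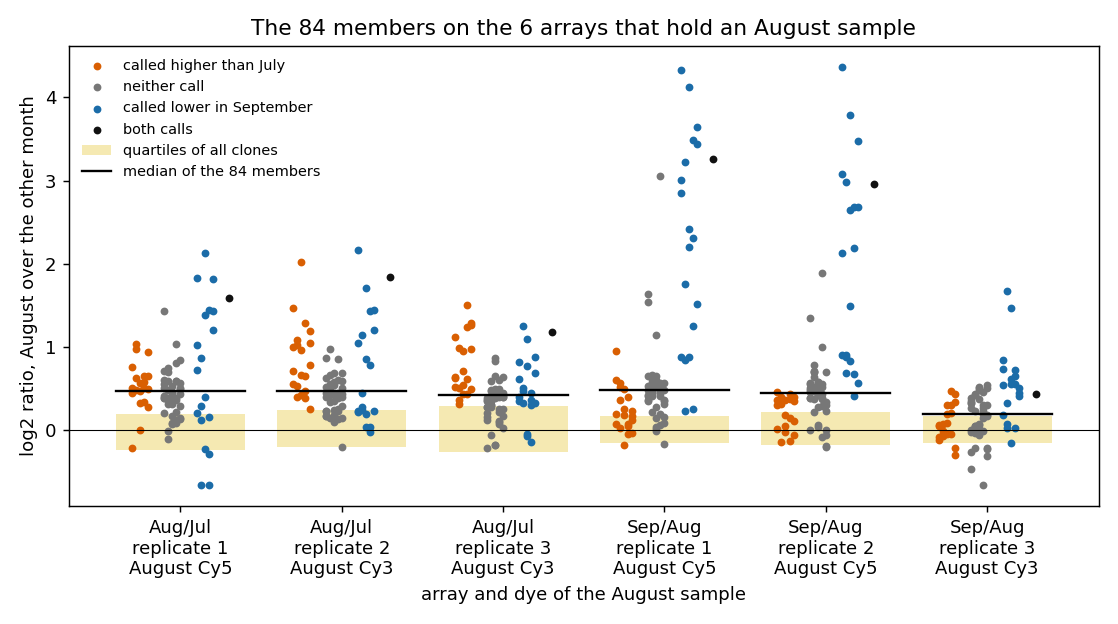
Log2 ratio of August over the other month (vertical axis) for each of the 84 members (points, by group) on the 6 arrays with an August sample (horizontal axis, with the dye of August). Black bars are the medians of the members, from 0.19 to 0.48, and bands are the quartiles of all 1920 clones. The fall group reaches ratios above 4 on replicates 1 and 2 of Sep/Aug and stays below 2 on replicate 3.

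Replicate arrays of the same dye orientation resembled each other most. Over the 84 members, replicates 1 and 2 of Sep/Aug correlated with r = 0.93, and each of them with replicate 3 with r = 0.42 and 0.49. In Aug/Jul the pair of the same orientation had r = 0.62 and the other pairs 0.39 and 0.09. These correlations run across clones that share the animals and slides, and are given as a description. The duplicate spots of the members correlated with a median r of 0.91 per array, against 0.78 for all clones.

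The ratios of the members were also compared with each other across arrays. Over the 171 pairs of the fall group's 19 clones the median correlation of the log2 ratios across the 40 arrays was 0.62, and it was 0.47 across the 34 arrays without an August sample. In the rise group these medians were 0.38 and 0.11 over 190 pairs. Among the 44 others they were 0.30 and 0.21, among all clones they were 0.00, and among the 719 clones called in the F test they were -0.01. All 40 arrays, those without August included, had entered the rule, so these values describe the chosen clones and test nothing. Pairs with r above 0.9 numbered 15 in the fall group, 1 in the rise group and 1 among the 44. Between the rise and the fall group the median was 0.22. The points of each correlation are arrays that share animals, dyes and slides, and clones of the same transcript may be among the pairs.

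Brightness and position were not used by the rule. The members were brighter than most clones, with a median mean log2 intensity of 9.11, against 8.19 for all clones called in the F test and 7.31 for all clones. The values were 7.73 for the 56 called clones that were highest in July and 8.49 for the 128 that were highest in September or October. A median of 85% of the members' spots lay above background, against 60% for all called clones, 45% for the July clones and 66.9% for the September and October clones. No member had a saturated spot. The members came from 18 of the 20 printing plates and from 15 of the 16 print-tip blocks, but not in equal numbers. The fullest plate held 9 of them (10.7%), where no plate held more than 5% of all clones. The fullest block held 12 (14.3%). Whether the members cluster by position on the array was not tested.

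To ask whether the August maximum held in arrays that had no part in the choice, the rule was applied without the arrays of a step, and the clones so chosen were read on that step alone. Without the 3 Aug/Jul arrays 100 clones met the rule, 51 of them members. On the held-out arrays their median ratio of August over July was 0.28 (log2, quartiles -0.07 and 0.53), against 0.02 over all clones, and 70 of the 100 had a mean above 0 (53.5% of all clones). All 3 held-out arrays were on the August side in 52 of the 100 (21.2% of all clones) and on the July side in 12 (20.3% of all clones). The share of chosen clones on the August side was 73%, 71% and 68% on the 3 arrays, where all clones were at 49.2%, 52.6% and 52.4%.

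No chosen clone was called on the 3 held-out arrays alone. In limma 0 of the 100 had an adjusted p below 0.05, as had 0 of all 1920 clones, while 37 had an unadjusted p below 0.05 on the August side (7.97% of all clones) and 14 on the July side (10.5% of all clones). Without replicate 1 the same test on the 2 other held-out arrays called 15 of the 100 in place of 0, and 48 of all clones. Both of these arrays had August in Cy3, so month and dye cannot be told apart in these calls. This was the highest count on leaving out 1 of the 3 arrays, and the lowest was 0. With the spread of a clone pooled over all 40 arrays, limma called 18 of the 100 higher in August (5.52% of all clones) and 8 lower (6.93% of all clones). That spread draws on the arrays that chose the clones, and the F test favours clones with a small spread. These counts are therefore not free of the choice.

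Without the 3 Sep/Aug arrays 86 clones met the rule, 47 of them members. Their median ratio of August over September on the held-out arrays was 0.11 (log2, quartiles -0.07 and 0.47), against -0.01 over all clones, and 54 of the 86 (62.8%) had a mean above 0, against 48.3% of all clones. All 3 arrays were on the August side in 33 (38.4%, against 20.6% of all clones) and on the September side in 15 (17.4%, against 18.4% of all clones). The arrays differed: 70.9% and 61.6% of the chosen clones were on the August side on replicates 1 and 2, and 52.3% on replicate 3, where all clones were at 50.4%. In limma 0 of the 86 were called by adjusted p (0 of all clones on the August side), 20 had an unadjusted p below 0.05 on the August side (9.74% of all clones) and 11 on the September side (6.88% of all clones). Over all clones 3 were called by adjusted p on the September side. Without replicate 3 the same test on the 2 other arrays called 12 of the 86 in place of 0, and 55 of all clones. Both of these arrays had August in Cy5, so month and dye cannot be told apart here either. Again this was the highest count on leaving out 1 of the 3 arrays, and the lowest was 0. With the pooled spread, which is not free of the choice, 18 of the 86 were called lower in September (5.68% of all clones) and 4 higher (2.45% of all clones). If the same August animals were on both sets of arrays, the held-out step is not free of them.

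**Figure D4:**
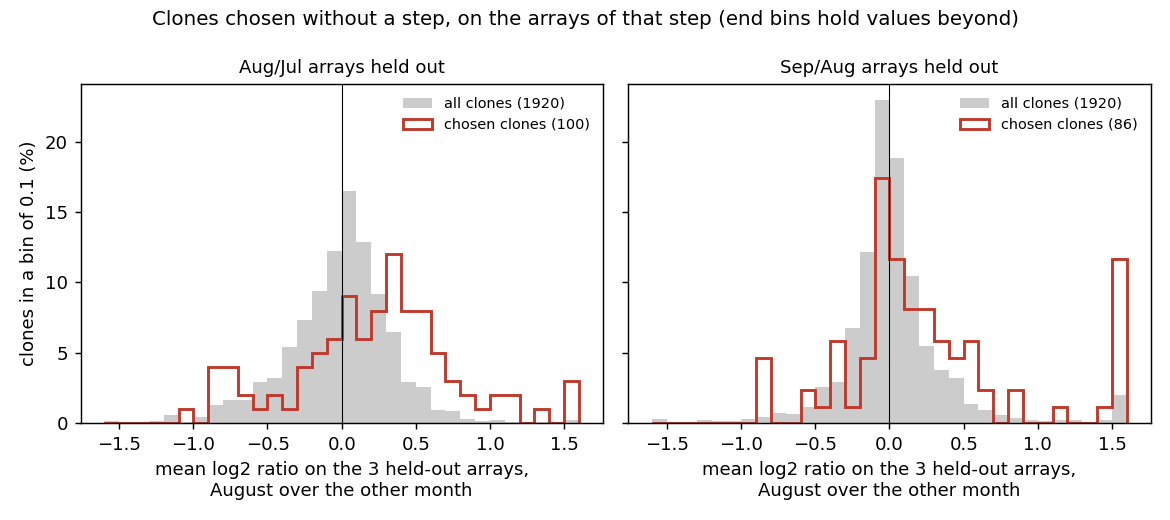
Share of clones (vertical axis, in %) by mean log2 ratio of August over the other month on 3 held-out arrays (horizontal axis), for the clones chosen without these arrays (red line) and all 1920 clones (grey). The 100 chosen clones are shifted to the August side on the Aug/Jul arrays, with a median of 0.28, and the 86 less so on the Sep/Aug arrays, with a median of 0.11.

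How many clones met the rule depended on the treatment of the intensities. With median centring of each array in place of loess 21 clones met it, all of them members, and 2 members were called above July. With plain background subtraction 51 clones met the rule, 44 of them members, and without the May/Apr arrays, which join animals of April 2008 to animals of May 2007, 55 did, 52 of them members. Each of the 84 members met the rule with a dye term, which could hardly move the fitted months in this loop. In every fit that left out 1 array 39 of the 84 met it. These included 14 of the 19 in the fall group, 8 of the 20 in the rise group and 16 of the 44 others. Without replicate 1 of Jul/Jun 131 clones met the rule. On that array the median ratio of July over June of the members was -0.23 (log2), against 0.44 and 0.56 on the 2 others of the step.

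**Figure D5:**
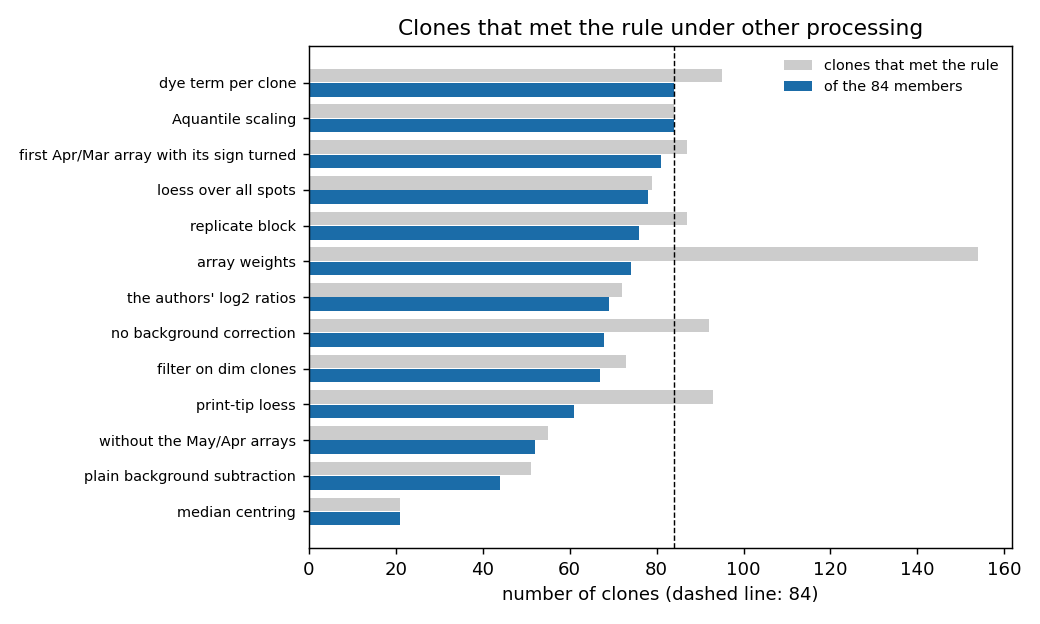
Number of clones (horizontal axis) that met the rule under each other processing setting (vertical axis, grey bars), and how many of them were among the 84 members (blue bars), with 84 as a dashed line. Median centring left 21 clones, and array weights gave 154, of which 74 were members.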

How the data were processed

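The deposited scanner files hold raw spot intensity values, mean foreground and median local background in Cy5 and Cy3, which the authors read with GenePix. The authors also deposited normalized log2 ratios made with limma (version not given in the sources used here). Of those 40 columns, 38 matched the scanner values of their own array and served as an alternative, without the columns of Dec/Nov replicate 3 and Mar/Feb replicate 4.

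Here the scanner values were corrected by normexp with an offset of 50, normalized by global loess on the clone spots, averaged over the 2 spots of a clone and turned to later over earlier month by the dye labels. The loop was fitted in R 4.3.3 with limma 3.58.1 (January 0, 29 residual degrees of freedom). Step contrasts were called at a Benjamini-Hochberg adjusted p below 0.05 and B above 0. A spot counted as above background where both channels lay over the mean of its local background plus 2 SD. Precision is limited by how few arrays a step has. The fit and the rule were tested on simulated data with independent noise for each clone and array. Such data lack the differences between replicate arrays that many clones share here, so that test does not cover them. The spread between arrays is that of pairs of single animals.

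The members, lists and tests were chosen with earlier results of these data known. The clones named are the 2 members with the highest moderated t for August minus July, the 2 other members with the lowest for September minus August, and the clone called in both. The alternatives were other background corrections and normalizations, a filter on dim clones, a dye term, a replicate block, array weights, the authors' log2 ratios, the loop without May/Apr, a turned Apr/Mar array, other call rules and each array left out.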

Additional observations from a re-analysis of the deposited data

Results flagged for a closer look

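In the steps with 4 arrays, 24 sets of 4 values (the 5 named clones and the median of the members) were searched for an array far from the others, and 2 stood apart, where chance alone marks about 1 set in 20. Myt01-004D01 had a log2 ratio of February over January of 0.56 on replicate 3 and of 1.52 to 1.69 on the 3 others. Myt01-008H05 had a log2 ratio of April over March of -0.24 on replicate 1 and of 0.30 to 0.34 on the 3 others, and that array ran against its step over all clones as well.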

How the results depend on the processing

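The 84 clones that met the rule became 51 with plain background subtraction (1681 clones with values on all arrays), 21 with median centring, 154 with array weights and 55 without the May/Apr arrays. Of the 84 members, 44, 21 and 52 still met it with plain subtraction, median centring and without May/Apr. The 21 members called above July became 12 with plain subtraction, 11 with print-tip loess, 2 with median centring, 11 with array weights and 44 with the adjusted p alone. The 20 called lower in September became 10 with plain subtraction and 11 with the filter on dim clones, which 67 of the 84 members passed. The median August level above the other months, 0.51 (log2), was 0.35 with no background correction. It stayed above 0 under every alternative, which says little, since the rule chose clones with August as the highest month. Aquantile scaling changes only brightness and left every count as it was. On held-out arrays the pooled spread, which draws on the arrays of the choice too, gave 18 calls for Aug/Jul and 18 for Sep/Aug in place of 0. The share with every array on the August side was 45.8% with print-tip loess and 35.9% with median centring for Aug/Jul (main value 52%). For Sep/Aug it was 28% with print-tip loess (main value 38.4%).

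Leaving out 1 array at a time, 66 to 131 clones met the rule, 61 to 82 members kept it, 8 to 22 members were called above July, 8 to 23 were called lower in September, and the median August level was 0.44 to 0.58. Without Aug/Jul replicate 1, 2 or 3 the calls above July were 12, 9 and 8. With 2 of the 3 held-out arrays, 0 to 15 clones were called for Aug/Jul and 0 to 12 for Sep/Aug. Every array was on the August side in 54% to 64% and in 38.4% to 57%. Such a share cannot be lower with 2 arrays than with 3, among the chosen clones or among all clones.

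Replicate numbers were searched for a pairing of the arrays. For 204 same-numbered pairs of arrays the median r of their deviations was 0.02, against -0.01 for 528 pairs of different number. In neighbouring steps, which alone share a month, the median was 0.02 for 39 same-numbered pairs. An array correlated best with its own number in 151 of 408 comparisons. By chance this is 1 in 3 for a step with 3 arrays and 1 in 4 for a step with 4, and the observed share lies above both. Replicate 1 had the later month in Cy5 in most steps, so number and dye overlap. Whether an animal was used on more than 1 array is not settled by these values. With the replicate block 87 clones met the rule, 76 of them members, 20 members were called above July, 19 were called lower in September, and the median August level was 0.51. The causes of these changes were not tested. In the fall group a median of 50% of a clone's spots lay above background.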
